A study of Mus musculus with 3 samples.

Results

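The genes described here are 6 feedback targets of canonical Wnt signalling, Axin2, Nkd1, Sp5, Notum, Rnf43 and Znrf3, and the 4 genes of the TCF/LEF transcription factors, Lef1, Tcf7, Tcf7l1 and Tcf7l2. They were taken as a list of 10 symbols, and every array probe whose RefSeq accession belongs to 1 of them was used. This gave 16 probes out of 39429 distinct probes, and 10 genes out of 21153 named on the array. Of the 16 probes, 15 passed the filter on dim probes, so all 10 genes entered the test, among 14710 genes in all.

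RNA was compared on 3 two-colour Agilent arrays, each holding a different biological replicate. One group was Hopx-/- mouse embryoid bodies grown with the Wnt inhibitor XAV939 at 12.5 µM, and the other was Hopx+/- embryoid bodies, for which the labels name no inhibitor. Both were taken at day 8 of cardiac differentiation, after hanging drops, suspension and plating in a medium with VEGF, bFGF, FGF10 and ascorbic acid. In embryoid bodies, stem cells grown in clumps differentiate into mixed tissues, and the cells here came from blastocyst-derived lines kept on feeder cells; the labels do not say how many lines stand behind each genotype. Hopx encodes a small homeodomain protein of the developing heart. The groups differ in genotype and in inhibitor together, so the effects of these cannot be told apart. RNA came from whole cultures, where fewer cells of a type and less RNA per cell cannot be told apart.

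In canonical Wnt signalling, a ligand bound to Frizzled and LRP receptors stops the destruction complex, β-catenin accumulates, and it activates genes at which TCF/LEF proteins sit on the DNA. Several of the genes it activates act against the signal itself, from scaffold proteins in the cytoplasm to enzymes at the cell surface. XAV939 inhibits the tankyrases, enzymes that mark axin for removal, so that axin builds up and β-catenin is degraded. In the embryo the pathway is needed to form mesoderm, and its later inhibition is known to favour heart muscle.

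The sign of the ratios below was taken from the array labels for 2 of the 3 arrays and is likely, not settled. By the labels, the null RNA is in Cy5 on each of the 3. Measured against Cy3, though, Cy5 ran one way in replicates 1 and 2 (r = 0.96 between them, over 24384 probes) and the other way in replicate 3 (r = -0.88 with replicate 1 and -0.91 with replicate 2). The authors' deposited table has replicate 3 with its sign changed, and the same was done here. Were the true direction the reverse, all ratios would change sign together. Hopx served as a check of the labels. Its brighter probe gave a mean log2 ratio, null with inhibitor over heterozygous, of -2.71 ± 0.05 (SD, n = 3 arrays, as for each ratio below, adjusted p = 2.03e-07 by limma). The second Hopx probe gave -2.25 ± 0.15. Both were still well above background on all 3 null arrays, which limits the check. The position of either probe relative to the deletion is not known from the labels. The share of distinct probes well above background was 55.3% to 65.6% in the null and 60.6% to 67.2% in the heterozygous cultures.

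TCF/LEF proteins bind DNA through an HMG box, and the sites they prefer hold the letters CTTTGA. The promoters of 4 members are shown for where these letters stand: Sp5 and Lef1, whose windows hold them, Rnf43, the member with the largest change, and Axin2, which did not pass the test. The sequences are from RefSeq on GRCm38.p6, a later build than the array's mm9, run 5′ to 3′ over the 250 bases before a start site, and are all on the + strand. They cover chr2:70474673-70474922 for Sp5, chr3:131156044-131156293 for the most downstream of the 4 Lef1 start sites in the table, chr11:87662837-87663086 for the first of 2 Rnf43 start sites and chr11:108920099-108920348 for Axin2. Capitals mark CTTTGA or, on the other strand, TCAAAG.
Sp5: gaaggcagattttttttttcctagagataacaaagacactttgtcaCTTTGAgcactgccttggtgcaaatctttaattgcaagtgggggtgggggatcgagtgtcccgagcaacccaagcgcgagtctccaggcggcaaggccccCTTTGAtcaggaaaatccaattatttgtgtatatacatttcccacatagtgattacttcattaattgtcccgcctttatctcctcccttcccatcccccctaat
Lef1: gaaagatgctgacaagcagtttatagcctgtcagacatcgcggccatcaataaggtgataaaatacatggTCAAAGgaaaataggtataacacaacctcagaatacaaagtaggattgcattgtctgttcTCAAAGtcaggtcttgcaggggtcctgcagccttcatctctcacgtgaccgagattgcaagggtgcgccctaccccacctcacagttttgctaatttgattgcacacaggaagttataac
Rnf43: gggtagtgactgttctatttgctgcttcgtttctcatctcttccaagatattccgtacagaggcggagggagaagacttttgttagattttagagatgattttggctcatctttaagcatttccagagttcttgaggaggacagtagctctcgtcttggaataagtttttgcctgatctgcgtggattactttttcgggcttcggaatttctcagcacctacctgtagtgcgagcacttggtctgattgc
Axin2: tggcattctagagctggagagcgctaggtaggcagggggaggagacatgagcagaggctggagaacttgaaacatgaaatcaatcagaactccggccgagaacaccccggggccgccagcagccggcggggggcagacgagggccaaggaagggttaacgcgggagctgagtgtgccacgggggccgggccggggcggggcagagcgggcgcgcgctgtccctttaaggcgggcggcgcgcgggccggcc
Sp5 had a pair of matches, at positions -204 to -199 and -104 to -99 from its start site, both on the gene's own strand. Lef1 had a pair at -180 to -175 and -120 to -115 before this start site, both on the opposite strand, and none before its other start sites. Windows of 300 bases, 250 before and 50 after the start, were matched for 8 of the 10 members, and 2 of their 14 windows held the letters on either strand. Over all 32851 promoter windows of the same length, 16.0% held at least 1 match and 1.73% held 2 or more. A match in these windows is a description and not a binding site, and binding was not measured here.

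Of the 6 Wnt feedback targets, Rnf43 and Nkd1 passed as lower in the null cultures with inhibitor under each setting that keeps replicate 3 turned. Sp5, Znrf3 and Notum had negative ratios in each of these settings that gave a value, but passed in only some. Of the 4 TCF/LEF genes, Lef1 and Tcf7l1 passed as higher in each of them. Tcf7 was higher as reported and passed in 12 of 13 alternatives. Of the 10 genes, 6 fell and 3 rose at an adjusted p below 0.05 by limma, which is 90.0% of them; of all 14710 genes tested, 64.5% passed, 31.5% as higher and 33.0% as lower. Among the feedback targets 5 of 6 fell and none rose, with Axin2 the exception, and their median ratio was -0.48. Among the TCF/LEF genes 3 rose and 1, Tcf7l2, fell, with a median of 0.63. The median over all 10 was -0.40, against -0.011 over all genes tested. Falls of 1 or more on the log2 scale were seen for 3 members (Rnf43, Nkd1 and Tcf7l2) and a rise of that size for 1 (Lef1), against 9.56% and 7.78% of all genes. The count of feedback targets that passed as lower dropped from 5 to 2, Rnf43 and Nkd1, in 3 settings. These were median centring in place of loess, local backgrounds marked as outliers kept, and the authors' values. Without replicate 2 the count was 3. Of the TCF/LEF genes 3 rose and 1 fell in the first and the last of these settings, and 2 rose and 1 fell with marked local backgrounds kept. Over all genes, 60.0% of calls were higher with median centring, against 48.9% with loess. With replicate 3 as labelled no member passed. Tested singly, 5 of the 15 probes rose and 9 fell, against 60.2% of all tested probes called in either direction. The 9 include the dim Nkd1 probe, which entered the test through its heterozygous signals alone. Each of the 16 member probes had 1 sign on all 3 arrays. The share of all probes that did so was not counted, so this is no trait of the members. With replicate 3 turned, pairs of arrays correlated at r = 0.88 to 0.96 over 24384 probes.

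**Figure D1:**
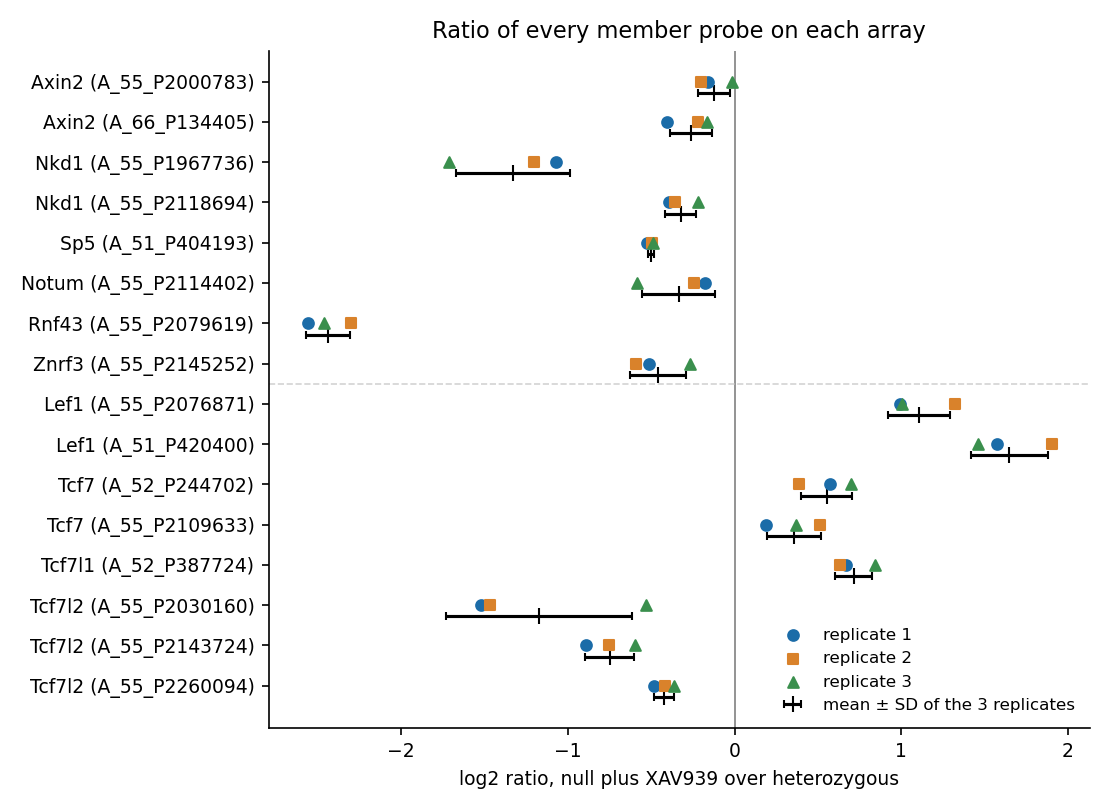
Log2 ratio of null plus XAV939 over heterozygous for all 16 probes of the 10 genes, with a marker for each replicate and, below it, the mean and SD; the feedback targets lie above the dashed line and the TCF/LEF genes below it. The Rnf43 probe lies between -2.56 and -2.30 on the 3 arrays, the Lef1 probes lie furthest to the right, and the brightest Tcf7l2 probe has the widest SD, 0.56.

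Rnf43 and Znrf3 encode related membrane ubiquitin ligases that remove Frizzled receptors from the cell surface. The Rnf43 probe had log2 intensities of 7.56, 7.58 and 7.68 in the null cultures with inhibitor, in replicates 1 to 3, against 10.12, 9.88 and 10.14 in the heterozygous ones. The groups were far apart and each was narrow. The ratio was -2.44 ± 0.13, a 5.42-fold fall (adjusted p = 3.48e-07), and only 1.03% of the tested genes had a lower one. Znrf3 stood at 6.48, 6.37 and 6.73 in the null cultures and at 7.00, 6.96 and 6.99 in the heterozygous ones, where it was nearly constant. The groups did not overlap, although replicate 3 of the null group came closer to the heterozygous level than the others. Its ratio of -0.46 ± 0.17 passed the test (adjusted p = 0.00493), although 1 of the 3 null signals was not well above background. The 95% intervals of the 2 ligase genes' ratios, -2.67 to -2.20 and -0.70 to -0.21, did not overlap. The Znrf3 call rests on the processing: the ratio was -1.39 with Feature Extraction's own log ratio (adjusted p = 0.00604) and -0.28 in the authors' values (adjusted p = 0.136). It was -0.15 with marked local backgrounds kept (adjusted p = 0.25), -0.49 with median centring (adjusted p = 0.085) and -0.39 without replicate 2 (adjusted p = 0.0669).

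Nkd1 encodes Naked cuticle 1, which binds Dishevelled and damps the signal. Its brighter probe had log2 intensities of 8.54, 8.59 and 8.19 in the null cultures with inhibitor and of 9.62, 9.79 and 9.91 in the heterozygous ones. The groups did not overlap, and replicate 3 held both the lowest null and the highest heterozygous value. The ratio was -1.33 ± 0.34, a 2.51-fold fall (adjusted p = 3.86e-05), and -0.83 as a mean over both probes (adjusted p = 7.95e-05). A second, dim probe gave 6.16, 6.17 and 6.26 against 6.55, 6.53 and 6.48, which is the same direction with a much smaller gap. None of its 3 null signals was well above background, so its level there is only a bound. The probe entered the test through its heterozygous signals alone and is no separate support for the fall. By group means it was at least 1.21-fold higher in the heterozygous cultures (measured ratio -0.32 ± 0.09, adjusted p = 0.0205 over all tested probes by limma). That call was lost when replicate 1 was left out (adjusted p = 0.133), as it was for replicate 2 (adjusted p = 0.158).

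Axin2 encodes the inducible scaffold of the destruction complex and is widely used as a reporter of β-catenin activity. Its brighter probe had log2 intensities of 6.37, 6.49 and 6.44 in the null cultures with inhibitor and of 6.52, 6.69 and 6.45 in the heterozygous ones. The groups overlapped, and in replicate 3 they were nearly equal. The ratios were -0.16, -0.20 and -0.015, with a mean of -0.12 ± 0.10 that did not pass (adjusted p = 0.305) and a 95% interval of -0.35 to 0.10. These were dim spots. The median signals were 123, 87 and 48 in the null cultures over local backgrounds of 49, 43 and 29.5, and 57, 72 and 78 in the heterozygous ones over 30, 31 and 43.5. Of the 3 null signals, 1 was not well above background. A constant of 50 was added after background correction, which pulls the ratios of such dim spots toward 0. Feature Extraction's log ratio, made from its own processed signals, gave -0.48 (adjusted p = 0.0119; over the alternatives that keep replicate 3 turned, from 0.0119 to 0.836). The second Axin2 probe was the member probe that did not enter the test; it gave -0.41, -0.22 and -0.16, and was well above background on no null array and on 2 of the 3 heterozygous ones.

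Sp5 encodes a zinc finger factor that is a direct target of β-catenin and represses other targets. It had log2 intensities of 8.17, 8.22 and 8.19 in the null cultures with inhibitor and of 8.69, 8.72 and 8.68 in the heterozygous ones. Both groups were tight and clearly separate. The ratio of -0.50 ± 0.02, a 1.42-fold fall, had the smallest SD of the member probes (adjusted p = 0.00169). The call was lost with median centring in place of loess (-0.45, adjusted p = 0.145), with local backgrounds marked as outliers kept (-0.31, adjusted p = 0.0866) and in the authors' values (-0.41, adjusted p = 0.0536).

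Notum encodes a secreted enzyme that removes the lipid from Wnt ligands and so inactivates them. Its log2 intensities were 9.99, 10.49 and 9.97 in the null cultures with inhibitor and 10.17, 10.73 and 10.55 in the heterozygous ones. The groups overlapped, but the null value was the lower one on each array. The ratios of -0.18, -0.24 and -0.58 gave a mean of -0.33 ± 0.22 (adjusted p = 0.0289). Notum had the least stable call of the members that passed: 6 of 13 alternatives that keep replicate 3 turned passed, and it did not pass without replicate 2 (-0.38, adjusted p = 0.0837) or without replicate 3 (-0.21, adjusted p = 0.052). With median centring it was -0.16 (adjusted p = 0.674).

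**Figure D2:**
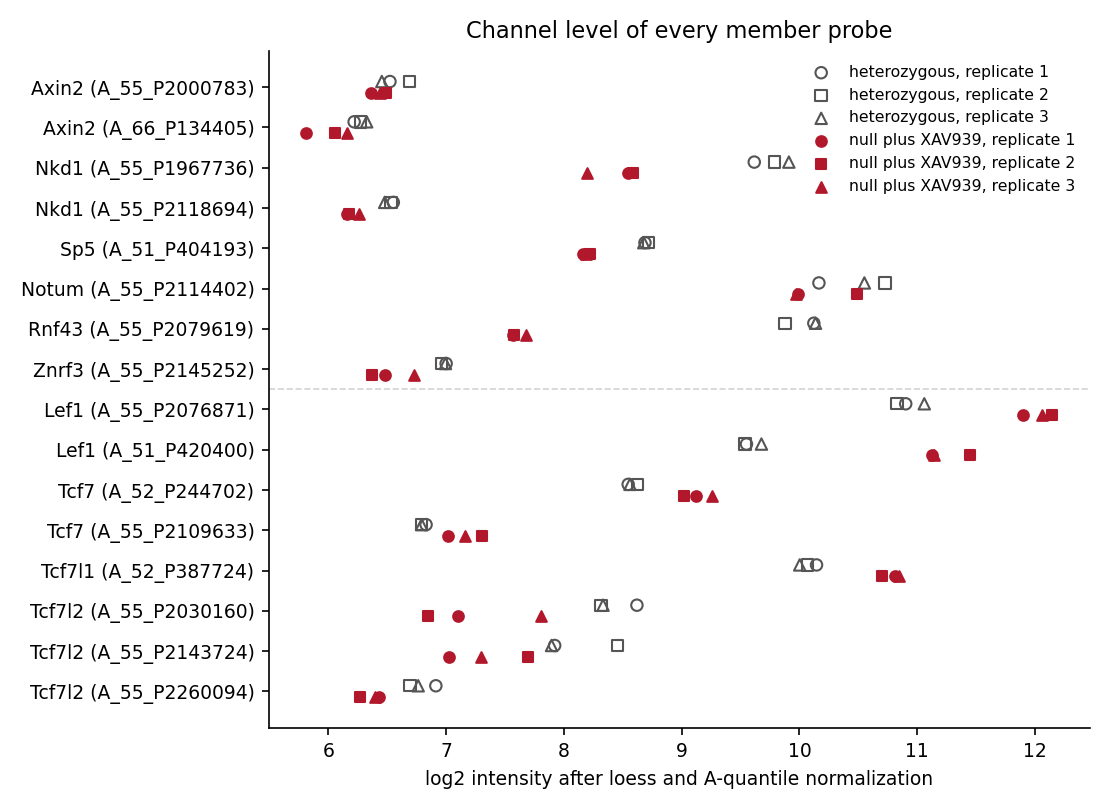
Log2 intensity of all 16 member probes in each channel, after loess and A-quantile normalization; open grey markers are heterozygous cultures, filled red markers are null cultures with XAV939, and marker shapes are replicates. The groups overlap for the brighter Axin2 probe and for Notum and are separate for the other probes; levels of different probes are not comparable with each other.

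Lef1 encodes the family member best known as an activator with β-catenin, and is itself a Wnt target in many tissues. Its brighter probe had log2 intensities of 11.89, 12.15 and 12.06 in the null cultures with inhibitor and of 10.90, 10.83 and 11.06 in the heterozygous ones. The groups were well separated. The ratio was 1.11 ± 0.19, a 2.15-fold rise (adjusted p = 3.37e-05). The second probe stood at 11.13, 11.45 and 11.14 against 9.55, 9.54 and 9.68, and its gap was wider than that of the first probe on each array. Its ratio of 1.65 ± 0.23 is a 3.14-fold rise (adjusted p = 6.64e-06 over all tested probes). Lef1 thus rose by 1 or more on the log2 scale with both probes, and it passed under all 13 alternatives that keep replicate 3 turned, at ratios from 0.91 to 1.38.

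Tcf7 encodes TCF1, which occurs in forms with and without the β-catenin binding domain. Its brighter probe had log2 intensities of 9.12, 9.02 and 9.26 in the null cultures with inhibitor and of 8.55, 8.63 and 8.56 in the heterozygous ones. The groups did not overlap, and replicate 2 had the smallest gap. The ratio was 0.55 ± 0.15, a 1.47-fold rise (adjusted p = 0.00164). The second Tcf7 probe moved the same way, from 6.83, 6.79 and 6.79 in the heterozygous to 7.02, 7.31 and 7.16 in the null cultures, a ratio of 0.36 ± 0.16 (adjusted p = 0.018 over all tested probes). The first call was lost with marked local backgrounds kept (0.41, adjusted p = 0.0659) and the second without replicate 2 (0.28, adjusted p = 0.20).

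Tcf7l1 encodes TCF3, the member that acts mostly as a repressor and is prominent in embryonic stem cells and epiblast. It stood at 10.81, 10.70 and 10.85 in the null cultures with inhibitor and at 10.14, 10.07 and 10.00 in the heterozygous ones. All null values were above all heterozygous values, with little spread in either group. The ratio was 0.72 ± 0.11, a 1.64-fold rise (adjusted p = 0.000285), and it passed under all 13 alternatives that keep replicate 3 turned.

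Tcf7l2, which encodes TCF4, was the TCF/LEF gene that fell, with each of its 3 probes. The brightest probe had log2 intensities of 7.10, 6.85 and 7.80 in the null cultures with inhibitor and of 8.62, 8.32 and 8.33 in the heterozygous ones. The groups did not overlap, but the null value of replicate 3 was far above those of the other 2 replicates. The ratios were -1.52, -1.47 and -0.53, with a mean of -1.17 ± 0.56, a 2.26-fold fall (adjusted p = 0.000489). The second probe gave 7.03, 7.70 and 7.30 against 7.92, 8.46 and 7.90 and the third 6.43, 6.27 and 6.40 against 6.91, 6.69 and 6.76. Neither pair of groups overlapped. Their ratios were -0.75 ± 0.15 (adjusted p = 0.000315) and -0.42 ± 0.06 (adjusted p = 0.00515 over all tested probes), the third with a null signal well above background on 1 of 3 arrays; without replicate 2 the third was at an adjusted p of 0.05. The 3 probes carry different transcript accessions, and the files do not say which forms each detects. The size of the fall in the brightest probe depended on the processing: it was -0.49 with marked local backgrounds kept (adjusted p = 0.0196) and -0.66 in the authors' values (adjusted p = 0.0127), all past the threshold.

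Ordered by ratio from the lowest, the genes ran Rnf43, Nkd1, Tcf7l2, Sp5, Znrf3, Notum, Axin2, Tcf7, Tcf7l1 and Lef1. Rnf43 lay apart from the next gene, with a 95% interval that ended at -2.20 where that of Nkd1 began at -1.64. The intervals of Nkd1 (-1.64 to -1.02) and Tcf7l2 (-1.59 to -0.76) overlapped. So did those of Sp5 (-0.72 to -0.28), Znrf3 (-0.70 to -0.21) and Notum (-0.59 to -0.075), each of which also overlapped that of Axin2 (-0.35 to 0.10). Differences between genes were not tested, and overlap of intervals does not show that 2 genes are alike. The intervals of the 3 rising genes overlapped from neighbour to neighbour, at 0.31 to 0.79 for Tcf7, 0.48 to 0.95 for Tcf7l1 and 0.86 to 1.35 for Lef1. The groups' levels did not overlap for 8 of the 10 genes, against 68.1% of all genes.

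Further lists of pathway genes hold 111 distinct genes, 98 of them tested, of which 25 rose, 39 fell and 34 did not pass; their median ratio was -0.16. The called share of 65.3% is near the 64.5% of all genes. By list it was 94.1% for other feedback inhibitors and negative regulators, 80.0% for R-spondin and LGR genes and 71.4% for ligands. It was 68.8% for other canonical targets and lower for the rest. These were destruction complex and tankyrases (52.9%), β-catenin and nuclear cofactors (47.1%) and Frizzled and co-receptors (42.9%). With median centring 19 rose and 17 fell, so that the larger count of lower genes was not kept. Other feedback inhibitors and negative regulators had 6 of 17 higher and 10 lower, at a median of -0.44. With median centring these counts were 3 and 3, with marked local backgrounds kept 2 and 2, and in the authors' values 3 and 8; without replicate 1 or without replicate 2, 3 were higher. Where both channels had to be above background, 4 genes of this list were higher and 10 lower. Shisa3, called higher, was well above background on no heterozygous array and entered the test through its null signals alone. Frzb, a secreted Wnt antagonist, fell most (-1.27 ± 0.21, adjusted p = 1.75e-05). Sfrp1, another of that family, rose most (2.40 ± 0.19, adjusted p = 4.83e-07; 1.56 with marked local backgrounds kept), so the list held opposite changes within 1 family. Other canonical targets had 4 of 16 tested higher and 7 lower (2 and 5 with marked local backgrounds kept), from the immediate early gene Jun (-2.09 ± 0.53, adjusted p = 1.32e-05) to the cyclin gene Ccnd1 (1.88 ± 0.10, adjusted p = 1.07e-06). The listed targets T, Msgn1, Cdx4, Mixl1 and Bambi did not enter the test.

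R-spondins act through LGR receptors to take Rnf43 and Znrf3 off the cell surface. Of 5 tested R-spondin and LGR genes 2 rose and 2 fell, against 1 and 0 both with median centring and with marked local backgrounds kept, and 1 and 1 when replicate 1 or replicate 2 was left out. Rspo1 was higher (0.91 ± 0.21, adjusted p = 0.000128) and Rspo3 lower (-0.68 ± 0.23, adjusted p = 0.00087), a fall that did not pass with median centring (-0.54, adjusted p = 0.0938) or with marked local backgrounds kept (-0.49, adjusted p = 0.0656). Among β-catenin and its nuclear cofactors 4 of 17 rose and 4 fell, at a median of -0.036; 4 and 1 did so with median centring, 2 and 2 with marked local backgrounds kept, and 2 fell without replicate 2. Ctnnb1, the gene of β-catenin itself chosen after its value was seen, lay at 0.10 ± 0.16 (adjusted p = 0.442). The corepressor gene Ctbp2 rose most (1.58 ± 0.47, adjusted p = 4.24e-05), and Bcl9, whose protein bridges β-catenin to Pygopus, fell most (-0.90 ± 0.21, adjusted p = 0.000132; -0.56 as a mean over its probes).

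Destruction complex and tankyrase genes had 3 of 17 higher and 6 lower, at a median of 0.038. The counts were 1 and 1 with median centring and 2 and 2 with marked local backgrounds kept; 2 were lower without replicate 2, and 5 were higher without replicate 3. Btrc, which encodes the ubiquitin ligase subunit that recognises phosphorylated β-catenin, rose most (1.47 ± 0.08, adjusted p = 3.65e-06), and the kinase gene Gsk3b fell most among genes of 1 sign on all arrays (-0.66 ± 0.11, adjusted p = 0.000457), though not with median centring (-0.38, adjusted p = 0.22). Of 14 tested ligand genes 3 rose and 7 fell (2 and 2 with marked local backgrounds kept, 2 and 4 where both channels had to be above background). They ran from Wnt11, a ligand of the developing heart (-2.24 ± 0.33, adjusted p = 1.85e-06, and -1.43 with marked local backgrounds kept), to Wnt5b (2.03 ± 0.05, adjusted p = 6.32e-07). Wnt2, called lower, was well above background on no null array, and Wnt8a, called higher, on no heterozygous one. Both entered the test through 1 group alone. Of 14 tested Frizzled and co-receptor genes 3 rose and 3 fell (3 and 1 with median centring, 1 and 2 with marked local backgrounds kept, and 6 lower without replicate 3), from Fzd4 (-1.99 ± 0.16, adjusted p = 1.07e-06) to Fzd6 (1.40 ± 0.40, adjusted p = 4.78e-05; 0.73 with marked local backgrounds kept).

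**Figure D3:**
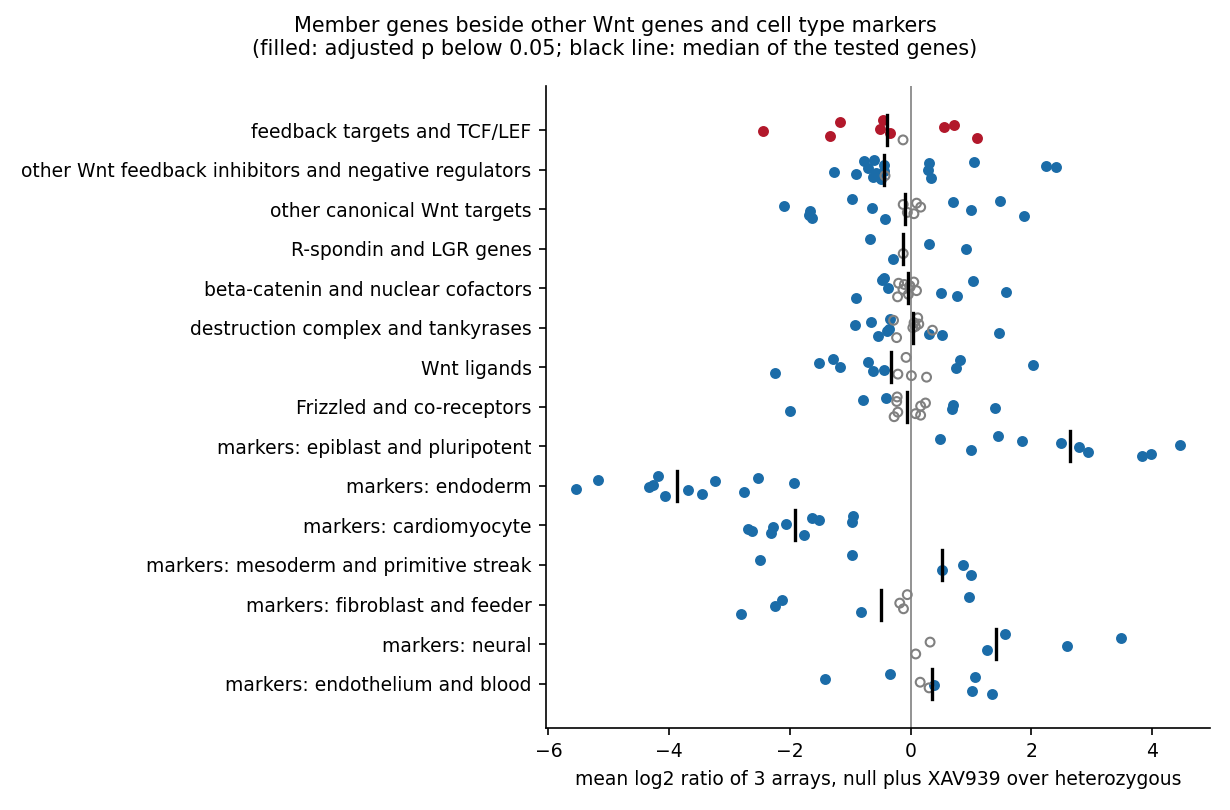
Mean log2 ratio of each tested gene in the 10-gene set (red), in the other Wnt lists and in the marker lists (blue), with 1 row per list; filled points passed at an adjusted p below 0.05, open points did not, and black lines are medians. The Wnt lists spread on both sides of 0, with medians from -0.44 to 0.038, while the endoderm and epiblast markers lie far from 0, at medians of -3.87 and 2.64.

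Markers of several cell types also differed between the groups. The marker lists were chosen with earlier results of these data known, so their counts are a description and not a test. All 10 epiblast and pluripotency markers were higher, at a median of 2.64, with Pou3f1 at 4.46 ± 0.28; their mean log2 intensity was 12.4 to 12.6 on the null side and 9.86 to 10.2 on the heterozygous side. All 12 endoderm markers were lower, at a median of -3.87, with Cubn at -5.54 ± 0.61; their mean log2 intensity was 9.06 to 9.66 against 13.05 to 13.08. All 10 cardiomyocyte markers were lower as well, at a median of -1.91, with mean levels of 11.1 to 11.3 against 12.9 to 13.2. Of 6 tested neural markers 4 rose and none fell, and of 8 fibroblast and feeder markers 4 fell and 1 rose. Of 5 tested mesoderm and streak markers 3 rose and 2 fell, and of 8 endothelial and blood markers 4 rose and 2 fell. The streak markers T, Mesp2, Mixl1 and Msgn1 did not enter the test. Mesp1, which rose, was well above background on only 1 heterozygous array. The called share was 66.7% of neural, 62.5% of fibroblast and feeder and 75.0% of endothelial and blood markers, against 64.5% of all genes. No tested marker was below background on all arrays of a group. The part of these shifts in the ratios of the Wnt genes was not tested.

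**Figure D4:**
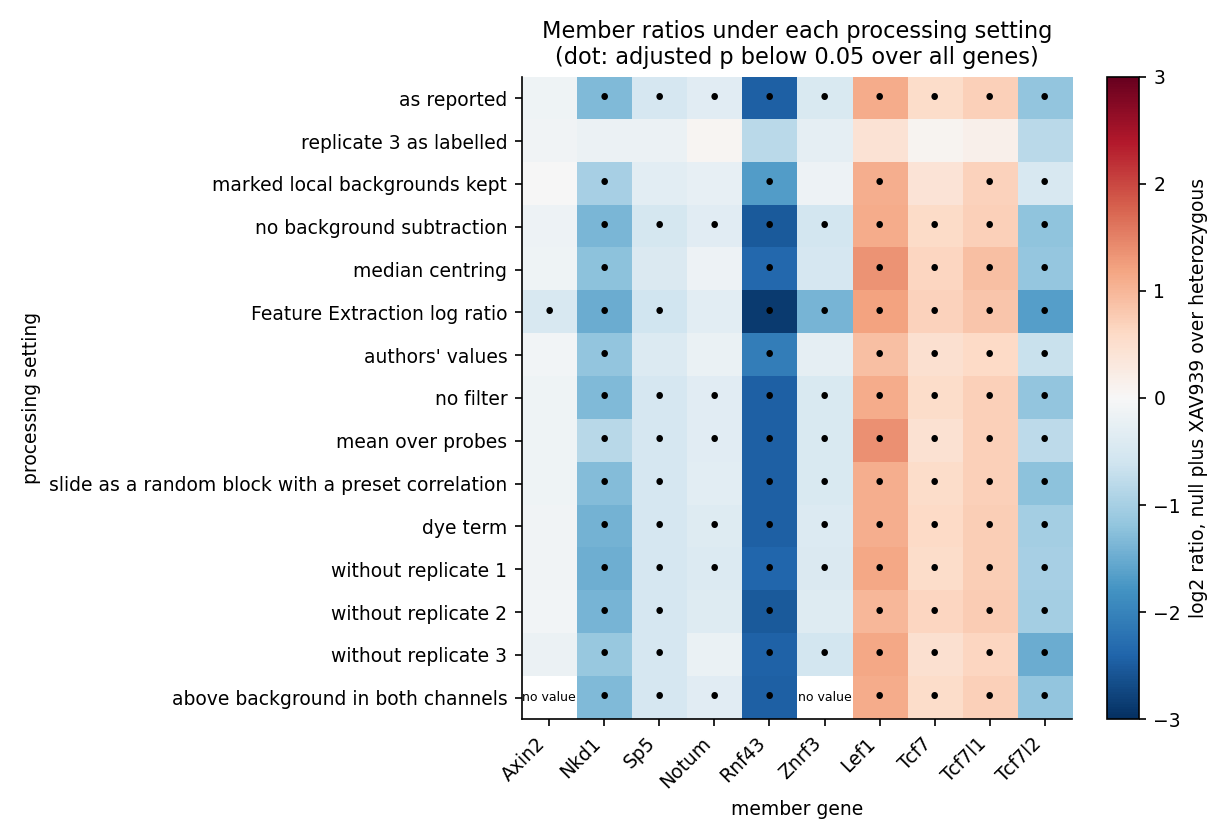
Mean log2 ratio of each member gene (columns) as reported and under each processing setting (rows), from blue for lower to red for higher in the null cultures with XAV939; a dot marks an adjusted p below 0.05 over all genes. Rnf43, Nkd1, Tcf7l2, Lef1 and Tcf7l1 carry a dot in each setting in which replicate 3 is turned, and no gene carries one with replicate 3 as labelled.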

How the data were processed

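The deposited scanner files hold median spot and local background intensity values in each channel, extracted by the authors with Agilent Feature Extraction (11.5.1.1 per the file headers, 8.5.1.1 per the submitters' processing notes) on probe design 026655, build mm9. Feature Extraction's deposited LogRatio column is on the log10 scale, red over green. The authors' series values were taken as log2 ratios. They followed the scanner ratios at r = 0.885, 0.945 and -0.940 with log2 Cy5 over Cy3, but r cannot show the base of the logarithm. Their medians were 0.086, -0.08 and 0.053, and how they were normalized and centred is not stated. Other columns used, per the file headers, are 0 or 1 marks for saturated, outlying and well above background spots.

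Background correction of the median signals used normexp with an offset of 50, followed by loess on each array (limma 3.58.1, R 4.3.3). Where a local background was marked as an outlier, the median of that channel's unmarked backgrounds took its place. Probes were named through RefSeq accessions (28025 with 1 symbol, 11404 unmatched, 0 with several). Probes entered the test when 1 or both channels were well above background on all 3 arrays, and the brightest such probe stood for its gene. Limma tested mean log2 ratios against 0, with Benjamini-Hochberg adjustment over 14710 genes, or over 24384 probes where stated, and a threshold of 0.05. The p-values and intervals rest on limma's moderated variance, which joins the spread of a gene's own 3 ratios with a value shared by all tested genes. Of 8.66 degrees of freedom, 6.66 came from the shared value. An SD printed beside a ratio therefore does not by itself give the p-value or interval. The SDs of Sp5 and Tcf7l2 were 0.017 and 0.56, and their moderated standard errors were 0.097 and 0.18. The number of arrays limits the precision (median SD 0.166). Channel levels are after A-quantile normalization.

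The members and lists were chosen with earlier results of these data known. All 10 members are named, and in the other lists genes were eligible by size among called genes of 1 sign on all arrays (up to 3 in each direction for Wnt lists, up to 2 for marker lists).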

Additional observations from a re-analysis of the deposited data

How the results depend on the processing

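The test was itself paired, because each array pairs both groups in its ratio. This leaves 1 group of 3 ratios and no further pairing to add. Replicates 2 and 3 lay on 1 slide and replicate 1 on another. Over all genes, 4636 rose and 4850 fell. With replicate 3 as labelled the counts of higher and lower genes were 0 and 0 by limma (13 and 27 at an unadjusted p below 0.05), 0 and 0 of the members and 0 and 0 of the other Wnt genes, and Notum (0.054), Eomes (-0.027) and Axin1 (-0.088) changed sign. With the overall direction turned the members had 6 higher and 3 lower and the other Wnt genes 39 and 25. With marked local backgrounds kept, 2665 genes rose and 2260 fell, 3 members fell, and 12 and 15 of the other Wnt genes rose and fell. With median centring the counts were 3039 and 2023 (60.0% of calls higher, against 48.9%), the median of all genes moved by 0.11, 3 members fell, and 19 other Wnt genes rose and 17 fell. In the authors' values 3 members fell. Without each replicate in turn, 3 members rose each time and 4 to 6 fell, with 3505 to 5278 genes higher and 3711 to 5338 lower, and 20 to 28 of the other Wnt genes higher and 30 to 45 lower. Axin2 and Znrf3 were left out where both channels had to be above background. With the slide as a random block no correlation could be estimated from 3 arrays; with a correlation of 0.5, chosen after seeing the data, Notum was the member that lost its call (-0.31, adjusted p = 0.139). Of the 10 members, Rnf43, Nkd1, Tcf7l2, Lef1 and Tcf7l1 passed under each of the 13 alternatives that keep replicate 3 turned, and Rnf43 ranged from -2.88 to -1.67. Signal over background limits Axin2 and Znrf3 most.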
